A study of Mus musculus with 6 samples.

Results

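Complement is a cascade of proteins that marks debris and microbes for removal and calls in leukocytes. The classical pathway starts when C1q, built from A, B and C chains, binds its target and activates the proteases C1r and C1s, which cut C4 and C2. Cleavage of C3 is the step that all routes share, factor B and properdin amplify it in the alternative pathway, and the fragments C3a and C5a act on leukocytes through their own receptors. Macrophages are known for making C1q, which coats dying cells and lipid in atherosclerotic lesions, whereas most circulating C3 comes from the liver. Expression of 9 complement genes was examined: the C1q chain genes C1qa, C1qb and C1qc, the central components C3 and C4b, the alternative pathway genes Cfb and Cfp, and the receptor genes C3ar1 and C5ar1. They were taken by symbol from the table of 24062 genes, and all 9 were among the 15222 genes with enough counts to be tested.

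RNA came from plaque of the aortic arch of knockout mice of strain C57BL/6, and both groups share the deletion. All mice spent 12 weeks on TD88137, a high-fat diet, and their last 3 weeks on a diet that the labels call LFD. The ABT263 group (3 libraries) received 100 mg/kg ABT263, 1 injection per day into the peritoneum, in week 1 of LFD. ABT263 (navitoclax) blocks anti-apoptotic members of the BCL-2 family and is widely used to clear senescent cells. The vehicle group (3 libraries) is the control, and the title of the series asks how senescent cells bear on repair by vascular smooth muscle. The labels do not give age or sex, how many days the injections lasted, or whether each library is 1 animal, so that spread between libraries may be partly technical.

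Libraries held 62930547 to 110452098 counts, and levels are given in CPM, counts scaled to a common library size with TMM factors. Plaque genes were present in every library: summed over 14 macrophage markers the level was 7709 to 24686 CPM, and over 8 contractile smooth muscle markers 2383 to 15516 CPM. Adipoq, a hormone of fat cells, stood at 356 CPM in ABT263 replicate 2 and at 0.096 to 0.51 CPM in the 5 other libraries. Skeletal muscle markers summed to 37.8 CPM in ABT263 replicate 3 and to 3.93 to 5.88 CPM elsewhere. Interferon response genes summed to 3059 CPM in vehicle replicate 2 and to 268 to 536 CPM elsewhere. Hepatocyte markers summed to at most 39.5 CPM, and 6 of 8, Alb and Apoa1 among them, had a count of 0 in at least 1 library.

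The 9 genes divided by direction, and none passed the test. The edgeR quasi-likelihood test, adjusted over all 15222 genes, called 0 of 9, as it called 0% of all genes (smallest adjusted p over the 9 = 0.592). At an unadjusted p under 0.05 it listed 4 of the 9, C1qa, C1qb and C1qc lower with ABT263 and C3 higher, against 8.38% of all genes, of which 3.68% were lower and 4.7% higher. DESeq2 also called 0 of 9 (smallest adjusted p = 0.0795, for C1qc, where 0.973% of genes were called), with 6 at an unadjusted p under 0.05, C3 higher and 5 lower (4.37% of genes lower). Limma-voom called 0 of 9, with 3 at an unadjusted p under 0.05 (5.62% of all genes). The fold change was negative for 5 of 9 genes, with 49.9% of all genes negative and 50.1% positive, and the median log2 fold change was -0.73 against 0.0008 over all genes. The same 5 genes, C1qa, C1qb, C1qc, Cfp and C3ar1, were lower in each ABT263 library than in any vehicle library, a pattern that 6.31% of all genes showed (12% in either direction). None of the 9 was higher in each ABT263 library than in any vehicle library, where 5.68% of all genes were.

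**Figure D1:**
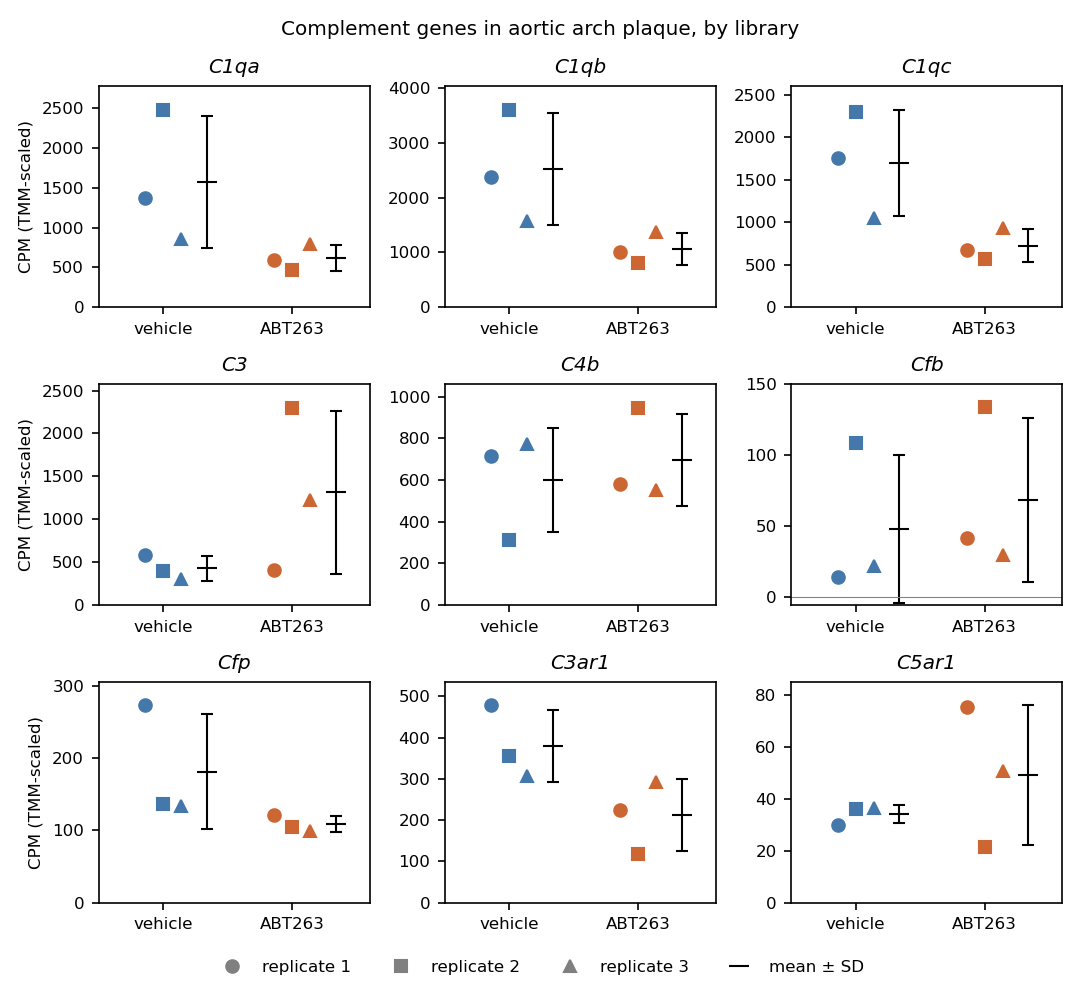
Level of each of the 9 genes in CPM (vertical axes, from 0 or below, each with its own range) in 3 vehicle (blue) and 3 ABT263 (orange) libraries, with mean ± SD beside them. The groups do not overlap for C1qa, C1qb, C1qc, Cfp and C3ar1, and C3 is high in ABT263 replicates 2 and 3 only.

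The genes of the C1q chains lie side by side on chromosome 4 in mouse build GRCm38, the assembly that mm10 denotes, all on the minus strand. C1qb spans 136880129 to 136886187, C1qc 136889804 to 136893065 and C1qa 136895917 to 136898803, with gaps of 3616 and 2851 bases. Promoter windows (RefSeq, GRCm38.p6, 250 bases before to 50 after the start of the gene) were at hand for 6 of the 9 genes; C1qa, C4b and Cfb are named only. Those of C1qb, C1qc, Cfp and C3ar1 are shown because these genes were lower in each ABT263 library, and that of C3 because its fold change had the opposite sign. Capitals mark GAGGAA on either strand, the core bound by PU.1, a transcription factor of macrophages and other myeloid cells.
C1qb, chr4:136886151-136886450, minus strand: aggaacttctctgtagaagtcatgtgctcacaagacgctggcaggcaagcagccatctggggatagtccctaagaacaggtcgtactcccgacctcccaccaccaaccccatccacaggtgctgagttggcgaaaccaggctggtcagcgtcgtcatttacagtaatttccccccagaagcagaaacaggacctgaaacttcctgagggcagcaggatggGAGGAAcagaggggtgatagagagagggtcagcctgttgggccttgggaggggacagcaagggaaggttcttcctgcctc
C1qc, chr4:136892865-136893164, minus strand: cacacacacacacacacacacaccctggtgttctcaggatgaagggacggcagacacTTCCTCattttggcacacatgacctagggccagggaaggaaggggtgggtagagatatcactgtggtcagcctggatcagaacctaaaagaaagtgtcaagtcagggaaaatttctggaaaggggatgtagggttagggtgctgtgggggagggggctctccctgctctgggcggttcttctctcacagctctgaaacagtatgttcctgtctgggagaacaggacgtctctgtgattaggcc
Cfp, chrX:20931506-20931805, minus strand: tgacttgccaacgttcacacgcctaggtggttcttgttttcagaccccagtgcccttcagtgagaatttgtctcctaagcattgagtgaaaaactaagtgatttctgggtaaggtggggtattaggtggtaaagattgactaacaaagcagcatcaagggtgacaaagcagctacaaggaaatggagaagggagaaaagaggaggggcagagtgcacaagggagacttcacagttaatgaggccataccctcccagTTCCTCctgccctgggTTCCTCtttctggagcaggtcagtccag
C3ar1, chr6:122856108-122856407, minus strand: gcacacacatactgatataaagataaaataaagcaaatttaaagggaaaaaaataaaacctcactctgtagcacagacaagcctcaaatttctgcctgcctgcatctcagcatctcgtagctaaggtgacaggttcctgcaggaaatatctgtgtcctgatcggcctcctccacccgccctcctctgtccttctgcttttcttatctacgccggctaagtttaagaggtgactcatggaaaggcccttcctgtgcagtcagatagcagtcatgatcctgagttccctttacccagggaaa
C3, chr17:57228087-57228386, minus strand: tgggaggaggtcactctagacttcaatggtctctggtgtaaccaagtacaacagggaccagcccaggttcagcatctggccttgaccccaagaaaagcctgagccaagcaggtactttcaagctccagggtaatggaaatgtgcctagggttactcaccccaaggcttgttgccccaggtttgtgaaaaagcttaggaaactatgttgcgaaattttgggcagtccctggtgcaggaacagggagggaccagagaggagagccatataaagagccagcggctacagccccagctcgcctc
The core begins at position -30 from the RefSeq start in C1qb, at -193 in C1qc, and at 7 and 23, both after the start, in Cfp. For C1qc the gene span given above, from GENCODE M21, begins farther upstream, at 136893065. The core of C1qc lies nearer to that start than to the RefSeq start. It was present in 3 of the 6 windows, those of C1qb, C1qc and Cfp, and in neither C3ar1 nor C3, and stood in 28.3% of all 32851 promoter windows of this length. The interferon-gamma site TTCNNNGAA (8.3% of windows) and the ISRE core of interferon-response genes (3.44%), searched on both strands, were in 0 of the 6, and CCAAT (37.4%) was in 1, that of C5ar1. A match describes letters only, and none of these windows was measured for binding here.

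C1qa, the gene of the A chain, stood at 1375, 2481 and 855 CPM in vehicle replicates 1 to 3 and at 593, 470 and 790 CPM in ABT263 replicates 1 to 3. The groups did not overlap, but vehicle replicate 3 and ABT263 replicate 3 were close. The mean was 1570 ± 831 CPM (SD, n = 3) for vehicle against 617 ± 161 CPM after ABT263, a log2 fold change of -1.35 (SE 0.46, edgeR adjusted p = 0.592), or 2.54-fold lower. C1qb, the B chain, stood at 2373, 3604 and 1579 CPM with vehicle against 999, 810 and 1378 CPM with ABT263. The order of the libraries was the same as for C1qa, vehicle replicate 2 highest and ABT263 replicate 2 lowest. For C1qc, the C chain, the values were 1757, 2296 and 1048 CPM against 675, 566 and 937 CPM, again in that order (log2 fold change -1.23, SE 0.39, edgeR adjusted p = 0.592). In a bulk sample, fewer C1q-making cells and less C1q RNA per cell cannot be told apart.

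Averaged over the chain genes, the mean log2 CPM was 10.81, 11.42 and 10.13 with vehicle, against 9.52, 9.23 and 9.98 with ABT263. Their difference was -1.21 on the log2 scale, and the exact two-sided permutation p was 0.1, the smallest that 3 against 3 allows. Its size rested partly on vehicle replicate 2: without that library the log2 fold changes of C1qa, C1qb and C1qc were -0.85, -0.90 and -0.95. With both replicates numbered 2 left out they were -0.69, -0.73 and -0.80. With ABT263 replicate 1 or ABT263 replicate 2 left out, 0 of the 3 chain genes had an unadjusted p under 0.05, the values running from 0.0534 to 0.0679. Vehicle replicate 2 was also the library with the highest interferon sum given above, and Rn45s, the ribosomal RNA precursor, took 1.74% of its counts. Endothelial markers summed to 443 CPM in that library and to 1659 to 4814 CPM in the 5 others. Rn45s also differed between the groups, at 0.542%, 1.74% and 0.553% of counts with vehicle against 0.332%, 0.304% and 0.334% with ABT263, without overlap. The part of these features in the C1q difference was not tested.

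Within each library the chain genes kept nearly fixed proportions. Per kilobase of exon, C1qb made up 49.4%, 48.1% and 51.5% of the chain sum with vehicle, against 50%, 50% and 50.4% with ABT263. C1qa made up 29.2% to 34.6% with vehicle and 30.2% to 31.0% with ABT263, and C1qc 17.3% to 20.6% and 19.0% to 19.7%. Vehicle replicate 2 had the largest share of C1qa and the smallest of C1qc. None of the 3 shares differed between the groups beyond the spread of the libraries (exact two-sided permutation p = 1 for C1qa, 0.7 for C1qb and 0.8 for C1qc, adjusted p = 1 for each). The level of C1qc per kilobase depends on its gene model, since 1931 bases of exon include a non-coding transcript and the longest coding transcript has 1203. On the shorter length the shares of C1qc were 25.1% to 29.4% with vehicle and 27.4% to 28.2% with ABT263.

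**Figure D2:**
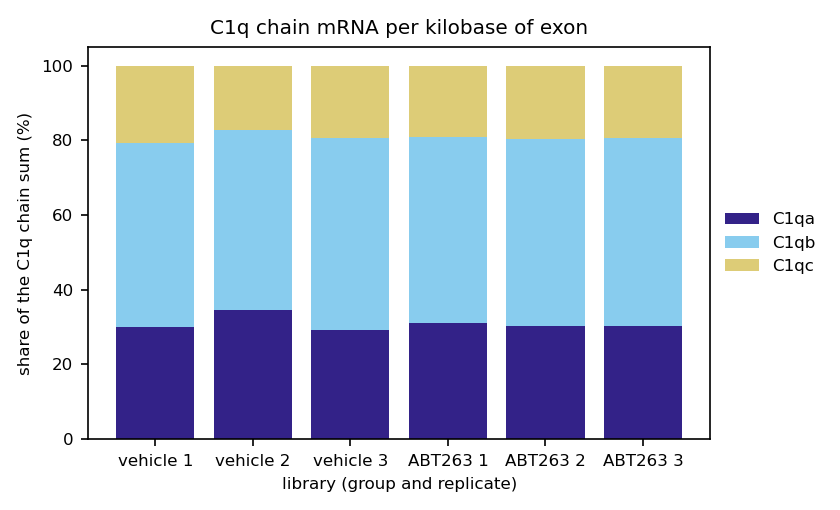
Share of C1qa, C1qb and C1qc in the sum of the 3 levels per kilobase of exon (vertical axis, %) in each library (horizontal axis). C1qb takes 48.1% to 51.5% in all 6 libraries, although the level of C1qb ranges 4.45-fold among them.

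C3, the component on which every route converges (chromosome 17, 57203970 to 57228136), stood at 587, 399 and 299 CPM with vehicle and at 413, 2303 and 1230 CPM with ABT263. ABT263 replicates 2 and 3 were above every vehicle library, and ABT263 replicate 1 lay within the vehicle range, so the groups overlapped. Means were 428 ± 146 CPM (SD, n = 3) and 1315 ± 948 CPM, a log2 fold change of 1.62 (SE 0.63, unadjusted p = 0.0388, edgeR adjusted p = 0.592). Without ABT263 replicate 2, the library with fat cell RNA, the log2 fold change was 0.95 (unadjusted p = 0.126), and without ABT263 replicate 1 it was 2.04 (unadjusted p = 0.00454, edgeR adjusted p = 0.192). Contractile smooth muscle markers were also highest in ABT263 replicates 2 and 3, at 15516 and 9598 CPM summed, against 2383 to 3572 CPM in the other libraries. All 8 of these markers, and all 8 fibroblast markers, had positive fold changes, and fibroblast sums were 2374 to 3585 CPM with vehicle and 3799 to 6086 CPM with ABT263. Their part in the C3 values was not tested.

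C4b, the target of activated C1s (chromosome 17, 34728380 to 34743882), stood at 716, 314 and 774 CPM with vehicle and at 583, 948 and 553 CPM with ABT263. The groups overlapped, and the lowest and the highest library were vehicle replicate 2 and ABT263 replicate 2. The log2 fold change was 0.21 (SE 0.42, edgeR adjusted p = 0.938), and its sign turned to -0.10 without vehicle replicate 2 and to -0.076 without ABT263 replicate 2. C4a, its neighbour and near copy, stood at 0.752 to 1.32 CPM. Because 34.6% of the 50-base stretches of C4b transcripts also occur in C4a, reads shared between both may have been dropped or split, and the level of C4b is uncertain to that extent.

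Cfb encodes factor B, the protease of the alternative pathway convertase (chromosome 17, 34856374 to 34862518), and lies 85 bases from C2, its classical pathway counterpart. It stood at 13.9, 108 and 21.2 CPM with vehicle and at 41.0, 134 and 29.1 CPM with ABT263. In each group replicate 2 was the high library, and the other libraries with ABT263 were above the other libraries with vehicle. The log2 fold change of 0.52 (SE 0.91, edgeR adjusted p = 0.929) became 1.95 without vehicle replicate 2 (unadjusted p = 0.0469) and -0.45 without ABT263 replicate 2 (unadjusted p = 0.635). With both left out it was 1.00 (unadjusted p = 0.0187, edgeR adjusted p = 0.642). Vehicle replicate 2 had the highest interferon sum, and ABT263 replicate 2 held fat cell RNA, and the part of either in the Cfb values was not tested. C2 followed the same libraries at lower levels, with 4.93 CPM in vehicle replicate 2, 89.5 CPM in ABT263 replicate 2 and 0.48 to 1.26 CPM in the others. Exons of Cfb and of C2 are covered in GENCODE M21 by the gene Gm20547, which shares 73% of the 50-base stretches of Cfb. That symbol has no row among the deposited counts. The annotation used for counting is not known, so whether counts of Cfb and C2 were affected is uncertain.

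Cfp encodes properdin, which stabilises the alternative pathway convertase and is made by leukocytes (chromosome X, 20925454 to 20931555). It stood at 273, 136 and 134 CPM with vehicle and at 122, 105 and 99.9 CPM with ABT263. The groups did not overlap, and vehicle replicate 1 stood well above the rest. The log2 fold change was -0.73 (SE 0.32, unadjusted p = 0.0577, edgeR adjusted p = 0.596), and -0.31 without vehicle replicate 1.

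C3ar1 encodes the receptor of C3a (chromosome 6, 122847138 to 122856161) and stood at 478, 355 and 308 CPM with vehicle and at 224, 119 and 292 CPM with ABT263. The groups did not overlap, with ABT263 replicate 3 just under vehicle replicate 3. The log2 fold change was -0.84 (SE 0.37, unadjusted p = 0.0586, edgeR adjusted p = 0.596), and -0.55 without ABT263 replicate 2. C5ar1, the receptor of C5a (chromosome 7, 16246743 to 16259540), stood at 30.1, 36.1 and 36.4 CPM with vehicle and at 75.6, 21.5 and 50.7 CPM with ABT263. Vehicle libraries were close together, and ABT263 libraries lay on both sides of them. The log2 fold change of 0.53 (SE 0.42, edgeR adjusted p = 0.785) became 0.89 without ABT263 replicate 2 (unadjusted p = 0.0106, adjusted p = 1) and 0.074 without ABT263 replicate 1.

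**Figure D3:**
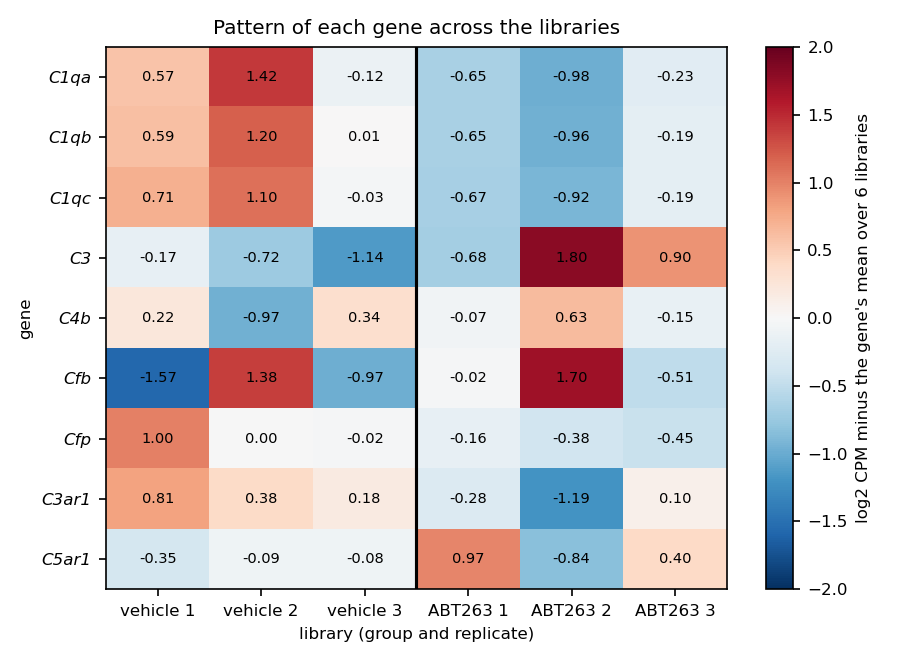
Log2 CPM of each gene (rows) in each library (columns) minus the mean of that gene over the 6 libraries; red is above the mean and blue below. The C1q rows share 1 pattern, highest in vehicle replicate 2 and lowest in ABT263 replicate 2, whereas C3, C4b and Cfb are highest in ABT263 replicate 2.

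Macrophage marker levels are given beside those of C1q, Cfp and C3ar1. Of the 14 macrophage markers 13 had a negative fold change, against 49.9% of all genes, and none was at 0 in any library. At an unadjusted edgeR p under 0.05, 2 were lower and 1 was higher with ABT263 (3.68% and 4.7% of all genes). For 4 the groups did not overlap, each lower with ABT263 (6.31% of all genes). The summed level of the 14 markers was 24686, 19237 and 15631 CPM with vehicle and 17043, 7709 and 15434 CPM with ABT263, with groups that overlapped (exact two-sided permutation p = 0.2). Markers of T cells (7 of 7 negative, 95.5 to 142 CPM summed against 30.2 to 81.1) and of B cells (6 of 6 negative, 108 to 185 against 30.8 to 85.0) summed to less in each ABT263 library than in any vehicle library. Neutrophil markers, of which Mpo was at 0 in at least 1 library, had 7 of 7 tested genes negative and summed to 117 to 279 CPM against 46.1 to 122 CPM. The part of these cell types in the differences of C1q, Cfp and C3ar1 was not tested.

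Set against the macrophage sum of the same library, the genes differed in sign. The log2 ratio of the C1q mean was -3.79, -2.81 and -3.80 with vehicle and -4.53, -3.68 and -3.94 with ABT263, a difference of -0.59 with groups that overlapped (exact two-sided permutation p = 0.3, adjusted over 7 ratios 0.467). For Cfp the difference was -0.031 (exact permutation p = 1) and for C3ar1 -0.29 (exact permutation p = 0.2), again with overlapping groups. C5ar1 had ratios of -9.68, -9.06 and -8.75 with vehicle and -7.82, -8.48 and -8.25 with ABT263. Each ABT263 library was above every vehicle library (difference 0.98, exact permutation p = 0.1, adjusted 0.35). In ABT263 replicate 2, however, C5ar1 itself was at its lowest (21.5 CPM), as was the macrophage sum (7709 CPM). C3 had ratios of -5.39, -5.59 and -5.71 against -5.37, -1.74 and -3.65, also without overlap, although ABT263 replicate 1 exceeded vehicle replicate 1 only slightly (difference 1.98, exact permutation p = 0.1, adjusted 0.35). C4b and Cfb had differences of 0.90 and 1.4 with overlapping groups (exact permutation p = 0.4 for each). Against Csf1r alone, the receptor gene of macrophage growth factor, C4b was apart as well (difference 0.98, exact permutation p = 0.1, adjusted 0.233). Csf1r itself stood at 347, 434 and 367 CPM with vehicle and at 242, 210 and 250 CPM with ABT263, without overlap. The levels of C4b overlapped, so its ratio also carries the difference in Csf1r. With 3 against 3 libraries none of these tests can reach 0.05.

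**Figure D4:**
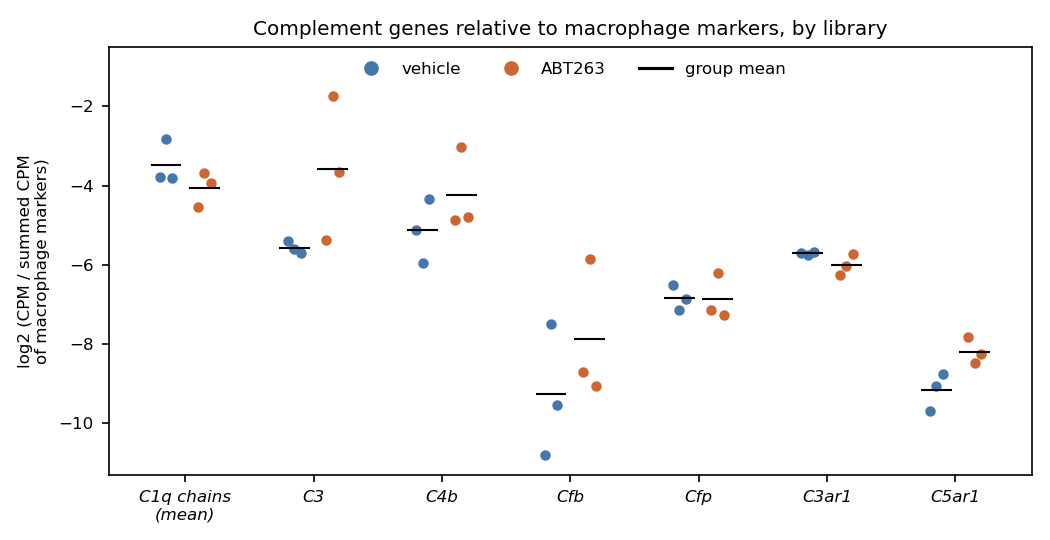
Log2 ratio of the CPM of each gene, or of the mean of the C1q chains, to the summed CPM of 14 macrophage markers (vertical axis, log2 scale) in each vehicle (blue) and ABT263 (orange) library, with group means as bars. The groups are apart for C3 and C5ar1, with ABT263 higher, and overlap for the 5 other items.

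Levels of different genes were compared per kilobase of exon (CPM per kb), averaged over the 6 libraries. The order was C1qb at 1646, C1qa at 1052, C1qc at 628, C3 at 169, C4b at 114, Cfp at 83.5, C3ar1 at 68.8, Cfb at 20.5 and C5ar1 at 16.2 CPM per kb. C1qb and C1qa led in each library, and C1qc followed in all but ABT263 replicate 2, where C3 (448 CPM per kb) exceeded it (293 CPM per kb). From C3 to C3ar1 the order changed from library to library, with ranges of 58.2 to 448 for C3, 55.1 to 167 for C4b, 57.5 to 157 for Cfp and 27.6 to 111 CPM per kb for C3ar1. Cfb (4.93 to 47.6) and C5ar1 (8.37 to 29.4) were at the lower end and overlapped each other, and in ABT263 replicate 2 Cfb stood above C3ar1. The places of C1qa and C1qc depend on the gene model: per kilobase of the longest coding transcript C1qa had a mean of 1052 and C1qc of 1008 CPM per kb. On that length C1qc exceeded C1qa in 4 of 6 libraries and C3 in ABT263 replicate 2 (470 against 448).

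Likeness in pattern was measured as the root mean square difference of centred log2 CPM over the 6 libraries, among 9733 genes outside the complement lists. The chain genes were within 0.067 to 0.151 of one another. Nearest to the C1q mean were Tlr1 (0.072), a lipoprotein sensor of myeloid cells, Pkib (0.147), a protein kinase A inhibitor, and Plcb2 (0.160), a phospholipase of blood cells. C3ar1 was nearest to Slamf7 (0.082), Blnk (0.091) and Nckap1l (0.123), all known from leukocytes, and Cfp to Rgl1 (0.116), Eepd1 (0.206) and Fam219a (0.210). C4b was nearest to Itpr2 (0.080), a calcium release channel, Gprc5b (0.099) and Cnst (0.133). For C3 the nearest were Ank2 (0.214), Maob (0.269) and Lrrc17 (0.276), and for C5ar1 Ccna2 (0.221), Hrct1 (0.236) and Sdc1 (0.238). The nearest genes were farthest off for Cfb, namely Tppp3 (0.437), Per3 (0.536) and Flt3l (0.539). The measure grows with the spread of the gene itself, and Cfb had the largest SD of log2 CPM (1.187). That SD was 0.569 for C5ar1 and 1.031 for C3. Among the 9 genes themselves, the C1q chains were 1.53 to 1.59 from C3, and Cfb and C3ar1 were the farthest apart (1.67).

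Of 44 further complement genes in the table, 30 could be tested. Their fold changes went both ways, 13 negative and 17 positive, with a median log2 fold change of 0.16. By edgeR the adjusted test called 0, with 1 lower and 4 higher at an unadjusted p under 0.05 (3.68% and 4.7% of all genes). DESeq2 called 0 too (smallest adjusted p = 0.0814, for C6), but gave no p for C2 and Cfd. Among these 30 the groups did not overlap for 4, each higher with ABT263 (C1rl, Cd59a, Cd59b and Cfd), where 5.68% of all genes were. On the lower side there were 0 of the 30 (6.31% of all genes). In the C1 complex, the protease genes C1ra (log2 fold change 0.62, SE 0.31) and C1s1 (1.03, SE 0.47) had the sign opposite to that of the chain genes. The groups overlapped for both. C1rl, a C1r-like protease that was listed with them, was positive as well (0.53, SE 0.20). C1s1 stood at 79.7, 151 and 110 CPM with vehicle and at 97.5, 320 and 280 CPM with ABT263, highest in the libraries where C3 was high. C1ra was highest there as well, at 184 and 169 CPM in ABT263 replicates 2 and 3 against 82.0 to 113 CPM in the other libraries.

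In the alternative pathway Cfd, which encodes factor D and is also known as adipsin from fat cells, stood at 1673 CPM in ABT263 replicate 2 and at 0.816 to 2.61 CPM in the 5 other libraries. Adipoq was high in that library alone, and without it the log2 fold change of Cfd was 0.78. Of 7 terminal components 2 could be tested, C6 (log2 fold change 3.26, SE 1.19) and C8g (0.02, SE 0.35). C6 and C7 were also highest in ABT263 replicate 2, at 7.93 and 26.3 CPM, and without it the log2 fold change of C6 was 1.39. Hc, which encodes C5, stayed at or under 0.623 CPM. C8a and C8b, and Mbl1 of the lectin pathway, had 0 counts in every library, which allows at most 0.048 CPM. Of 5 lectin pathway genes tested 3 were negative, among them Masp1 (-0.92, SE 0.58), a protease of that pathway, while Fcna, a ficolin, was positive (1.80, SE 0.98). Without vehicle replicate 2 Masp1 was -0.33, and without ABT263 replicate 2, which had 41.1 CPM of Fcna, Fcna was -0.05. Fcnb, also of the lectin pathway, had too few counts for the edgeR test but was lower in each ABT263 library than in any vehicle library. It stood at 0.128, 0.928 and 0.468 CPM with vehicle and at 0.0827, 0.0445 and 0 CPM with ABT263. DESeq2, which did test it, gave an unadjusted p of 0.0036 and an adjusted p of 0.118.

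Among 8 other receptor genes 6 were negative. The positive ones were C5ar2 (log2 fold change 1.10, SE 0.77, edgeR adjusted p = 0.743) and Cr1l (0.04, SE 0.15). C5ar2 stood at 1.98, 0.816 and 7.14 CPM with vehicle and at 6.6, 5.05 and 9.65 CPM with ABT263, with groups that overlapped. Without vehicle replicate 3 its log2 fold change was 2.35. Cr2, the complement receptor of B cells, stood at 1.09, 0.529 and 5.95 CPM with vehicle and at 0.196, 0.178 and 0.771 CPM with ABT263 (log2 fold change -2.72, SE 1.09, unadjusted p = 0.0436, edgeR adjusted p = 0.592). Without vehicle replicate 3 it was -1.07. The integrin genes Itgax, Itgb2 and Itgam encode subunits of receptors for C3 fragments. Their log2 fold changes were -0.64 (SE 0.51) for Itgax, -0.43 (SE 0.44) for Itgb2 and -0.020 (SE 0.40) for Itgam, and -0.24, -0.07 and 0.33 without ABT263 replicate 2. Among 9 regulators 6 were positive. Cd59a, which blocks the membrane attack complex, stood at 49.7, 41.1 and 46.9 CPM with vehicle and at 57.5, 77.5 and 62.8 CPM with ABT263 (log2 fold change 0.52, SE 0.18, unadjusted p = 0.0245, edgeR adjusted p = 0.592). Cd59b had the same direction at 0.704 to 0.922 against 0.971 to 1.78 CPM. Serping1, the C1 inhibitor, had 1.10 (SE 0.59), with 685 CPM in ABT263 replicate 2 and 125 to 230 CPM in the other libraries, and 0.20 without that library.

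**Figure D5:**
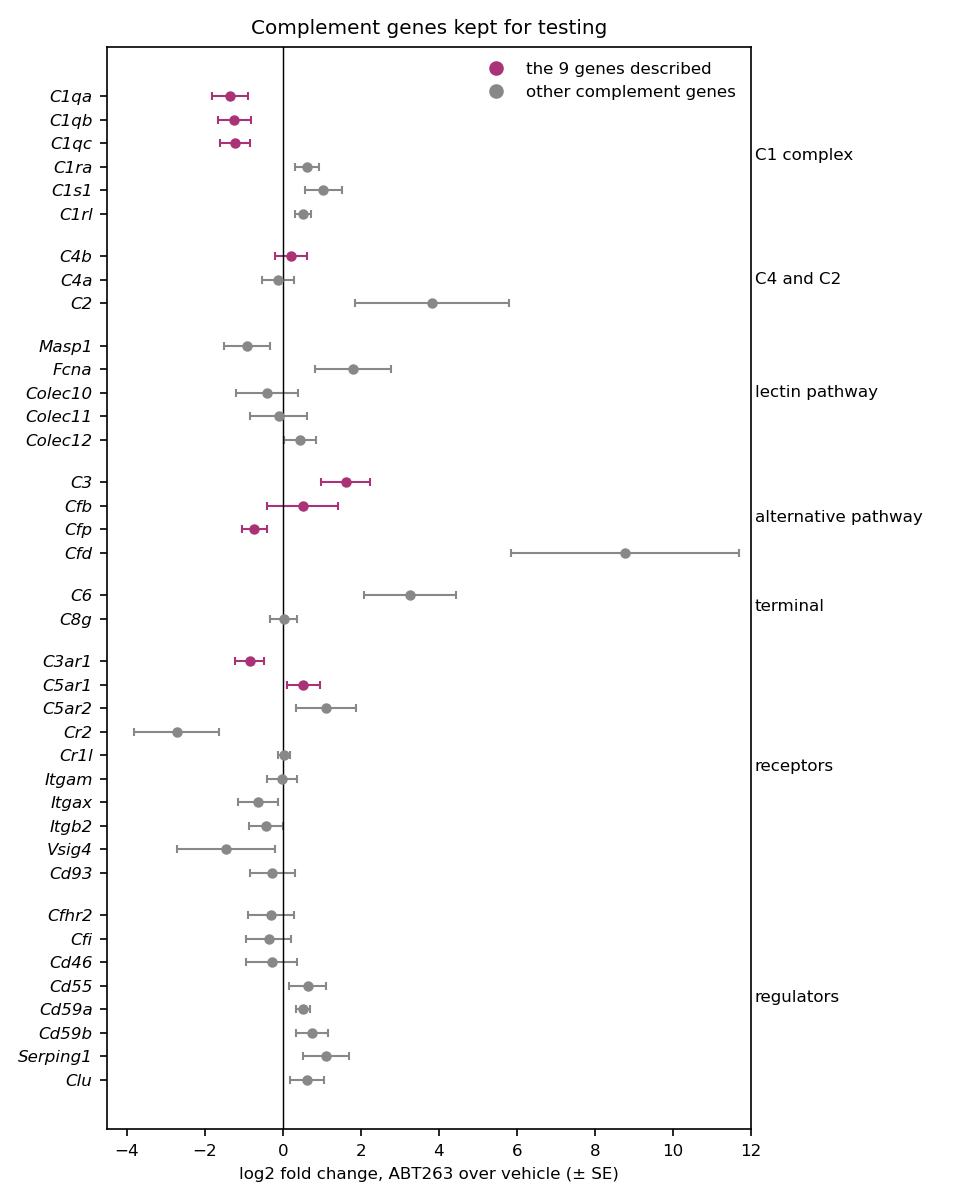
Log2 fold change, ABT263 over vehicle, with its standard error (horizontal axis) for complement genes that could be tested, grouped by role; the 9 genes described are in purple. C1qa, C1qb and C1qc sit between -1.35 and -1.23 while C1ra, C1s1 and C1rl are above 0, and the widest bar is that of Cfd.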

How the data were processed

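RNA of aortic arch plaque was sequenced in 6 samples, 3 per group, grouped by their titles. The labels' protocols name the RNeasy Micro kit and the TruSeq RNA Library Prep Kit v2, which does not mark strand. The authors deposited raw counts per gene symbol, whole numbers that were used as deposited. Per the submitters' processing notes the tools were featureCounts 1.4.6, Subread, TopHat2 2.0.14 and Bowtie2 2.2.6, with mm10 as the build and no roles stated. Annotation, handling of multi-mapping reads and batches were not given in the sources used here.

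In R 4.3.3, edgeR 4.0.16 kept 15222 of 24062 symbols (filterByExpr, minimum count 10, minimum total 15), scaled them by TMM and ran its quasi-likelihood F-test on group alone, with Benjamini-Hochberg adjustment over all genes and a threshold of 0.05. A standard error is the absolute log2 fold change over the square root of F. Log2 CPM used a prior count of 2. For the C1q mean, shares and ratios, exact permutation tests were two-sided. Replicate numbers follow accession order and pair nothing. DESeq2 1.42.0, limma-voom (limma 3.58.1), other scalings, no filter and fits without single libraries were the alternatives. Levels per coding length, and fits of further complement genes without single libraries, were added after seeing the data. The fitting procedure was tested on simulated counts.

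The genes, lists and tests were chosen with earlier results of these data known. Genes named are the 9, complement genes with groups that did not overlap or an unadjusted p under 0.05, the set genes Cfd, C1ra, C2, Hc and Itgam and the 3 nearest genes in pattern whose mean log2 CPM reached 3. C1s1, Masp1, Fcna, C7, C8a, C8b, C8g, Mbl1, C5ar2, Cr1l, Itgax, Itgb2, Serping1, Adipoq and C4a were named after their values were seen. Of the listed symbols 5 had no row under that name: C1s, Adgre1 and Gpr77 have a synonym that was used, and Cd55b and Trac are not used here. The deleted gene and 1 regulator that is counted in its list are not reported here. Gene positions and exon lengths are from GENCODE M21, and promoter windows are from RefSeq. Sums of marker lists are of CPM. Depth was 62930547 to 110452098 counts, so that a count of 0 allows 3 counts, 0.0278 to 0.048 CPM, for counting error only.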

Additional observations from a re-analysis of the deposited data

How the results depend on the processing

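Each of the 9 genes was refitted under 12 alternatives, and none passed the adjusted threshold in any. C1qa, C1qb, C1qc, Cfp and C3ar1 stayed negative and C3 and C5ar1 positive in all 12. The number of the 9 genes lower at an unadjusted p under 0.05, 3 in the main test, was 5 by DESeq2, 0 to 4 without single libraries, and 0 with both replicates numbered 2 left out. The log2 fold change of C4b (0.21) was -0.39 without that pair and ran from -0.10 to 0.43 without single libraries, and that of Cfb (0.52) from -0.45 to 1.95. Without single libraries C1qb ran from -1.50 to -0.90 and C3 from 0.95 to 2.04. Against Csf1r in place of the macrophage sum, the difference of Cfp (-0.031) was 0.053; the other ratios kept their sign. Over all genes DESeq2 called 156, and edgeR and limma-voom 0. The causes were not tested. No paired analysis was possible because the labels give no replicate numbers that groups share. With 3 libraries a group, the spread between libraries limits precision more than depth does for the 9 genes, whose counts were 870 or more in each library.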

Other observations

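The chain genes of C1q took a visible part of the sequenced RNA. Together C1qa, C1qb and C1qc made up 0.512%, 0.818% and 0.349% of all counts in the vehicle libraries, against 0.239%, 0.198% and 0.301% after ABT263. Over all 9 genes the shares were 0.507% to 0.949% and 0.393% to 0.587%, so that the groups overlapped once C3 was included. The spread among libraries differed by gene. Cfb ranged 9.65-fold and C3 7.69-fold from the lowest to the highest library, and Cfp 2.73-fold and C4b 3.02-fold.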
